A study of Mus musculus with 14 samples.

Results

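Autophagy is the process by which a cell encloses part of its cytoplasm in a double membrane, the autophagosome, and digests it in the lysosome. The 33 genes described here encode its core machinery and the receptors that deliver cargo, mitochondria among it, and they were taken as a list of symbols rather than by a threshold on their values, though earlier results of these data were known when the list was made. Of these, 31 had at least 1 probe set annotated to them alone, 80 probe sets in all out of 45101 on the array. Probe sets were kept where they lay above the 40th percentile of their array on at least 4 of the 14 arrays, which left 69 member probe sets for 30 genes among the 23887 that were tested. Pik3c3, the class III lipid kinase, lay above that percentile on 3 arrays and was not tested. Optn was not measured by a probe set of its own, and the 3 probe sets of Bnip3l, a mitochondrial receptor close to Bnip3, are annotated also to the pseudogene Bnip3l-ps, so neither gene is analysed here.

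In outline, a kinase complex built on Ulk1 or Ulk2 with Atg13 and Rb1cc1 (also called FIP200) starts the process. A lipid kinase complex with Becn1 marks the forming membrane, and Wipi proteins read that mark. A pair of ubiquitin-like conjugation systems, run by the Atg enzymes, then attaches LC3 and GABARAP proteins to the membrane lipid, and these small proteins catch receptors such as Sqstm1, Nbr1 and Bnip3 with their cargo. In muscle stem cells, autophagy is known to maintain quiescence, and the machinery is regulated largely through proteins and their modification as well as through transcript levels.

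RNA came from skeletal muscle precursor cells of C57BL/6 mice, which were freed from muscle by enzymatic digestion and sorted as CD29 and Cxcr4 positive and as CD45, Ter119 and Sca-1 negative. The groups were young mice of 2 months (5 arrays), middle-aged mice of 12 months (4 arrays) and aged mice of 24 months (5 arrays), and no array carried a treatment or an altered allele. The sort enriches satellite cells by surface markers, and whether an array stands for 1 animal or a pool is left unsaid in the labels, so the p-values below measure the spread between these arrays, part of which may be technical. Values are log2 of the RMA intensity of a probe set. Such values compare arrays for 1 probe set and not the levels of different genes, and in bulk RNA fewer cells of a type and less RNA per cell cannot be told apart.

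All 9 satellite cell and myogenic markers checked, Pax7 and Myf5 among them, were above the filter. Their median log2 change was -0.50 in aged and -0.43 in middle-aged against young cells, with 8 of 9 below 0 in both. Over all 13579 genes the medians were -0.05 and -0.04. By call, 1 of the 9, Calcr, fell in aged cells, beside 134 of all 13579 genes. The log2 of the summed intensities of the 9 overlapped across ages. It ran from 13.82 to 14.18 on young, 13.95 to 14.18 on middle-aged and 13.67 to 14.10 on aged arrays. Marker genes of other cell types moved with age as well. The log2 of the summed intensities of 16 mature myofibre genes ran from 11.38 to 12.52 on young, 11.65 to 12.60 on middle-aged and 12.60 to 13.91 on aged arrays. Of the 15 tested, 12 rose and 1 fell in aged against young cells, beside 375 and 134 of all 13579 genes. For 10 tenocyte genes the sum ran from 12.59 to 13.70, from 15.03 to 15.86 and from 14.82 to 15.79. For 8 macrophage and myeloid genes it ran from 7.80 to 8.38, from 8.20 to 8.95 and from 8.54 to 9.88, with Ptprc and Itgam below the filter percentile on all 14 arrays. Sums of 9 fibroblast genes ran from 14.23 to 14.67, from 14.67 to 15.25 and from 14.31 to 15.21. Those of 8 endothelial genes, with Pecam1 below the percentile on all arrays, ran from 8.40 to 8.90, from 7.70 to 8.32 and from 7.51 to 9.54. Those of 3 measured erythroid genes, with Hba-a1 below it on all arrays, ran from 4.92 to 5.03, from 5.01 to 5.31 and from 5.08 to 7.45. A sum of intensities follows the brightest genes of its list. Gene by gene in aged against young cells, by the brightest probe set, 8 of 10 tenocyte genes, 1 of 9 fibroblast genes (Dcn) and 1 of 6 tested myeloid genes (Cd14) rose. By probe set, 3 of 16 kept fibroblast probe sets rose, beside 528 of all 23887. They were of Dcn and of Gsn, whose brightest probe set was not called. Of the fibroblast genes 3 had changes below 0. In the endothelial list 0 of 5 tested genes were called, and 1 erythroid gene was tested and not called. The 3' minus 5' difference between control probe sets of Gapdh and Actb is a measure of RNA integrity. A larger difference means a weaker 5' signal beside the 3' signal and is read as less intact RNA. It had a young mean of 4.30 ± 0.54 (SD, n = 5), a middle-aged mean of 3.85 ± 0.25 (n = 4) and an aged mean of 3.54 ± 0.51 (n = 5). The aged mean differed from the young by -0.77 (p = 0.0714 in a two-sided exact permutation test), so the larger difference was that of the young arrays. The arrays also fell into a pair of sets across ages, defined from the values themselves: set 1 held 3 young, 3 middle-aged and 2 aged arrays, and set 2 held 2, 1 and 3. Because the sets come from the spread of these same values, a term for the set takes up part of that spread. A pass with that term is therefore not independent support. The part of these cell type, RNA and set differences in the results below was not tested beyond the values given beside them.

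Aged against young cells, the widest age step of the design, gave 4 called members. Transcripts of Ulk1 and Rb1cc1, both of the kinase complex that starts autophagy, fell, while those of Gabarap, a membrane-anchored member of the LC3 family, and Bnip3, a mitophagy receptor of the outer mitochondrial membrane, rose. These were 4 of 69 member probe sets (5.80%), called at an adjusted p under 0.05, against a background of 3.10% over all probe sets tested. In each direction 2 member probe sets (2.90%) were called, where the background was 2.21% higher and 0.888% lower. The same 4 probe sets were those whose young and aged arrays did not overlap (2 higher and 2 lower, against 2.82% and 1.81% of all probe sets). At an unadjusted p under 0.05 there were 8 member probe sets (11.6%), against 15.2% of all probe sets. The median log2 change over the 30 genes, each by its brightest kept probe set, was -0.04, against -0.05 over all 13579 genes. Single young arrays decided part of the count, which was 2 without young array 1 or 3 and 1 without young array 4. In a model that also held the 3' minus 5' difference (the RNA integrity covariate below) the count was 1, that of Rb1cc1. Over all probe sets, 487, 471 and 523 were called without young array 1, 3 and 4, and 609 in that model.

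**Figure D1:**
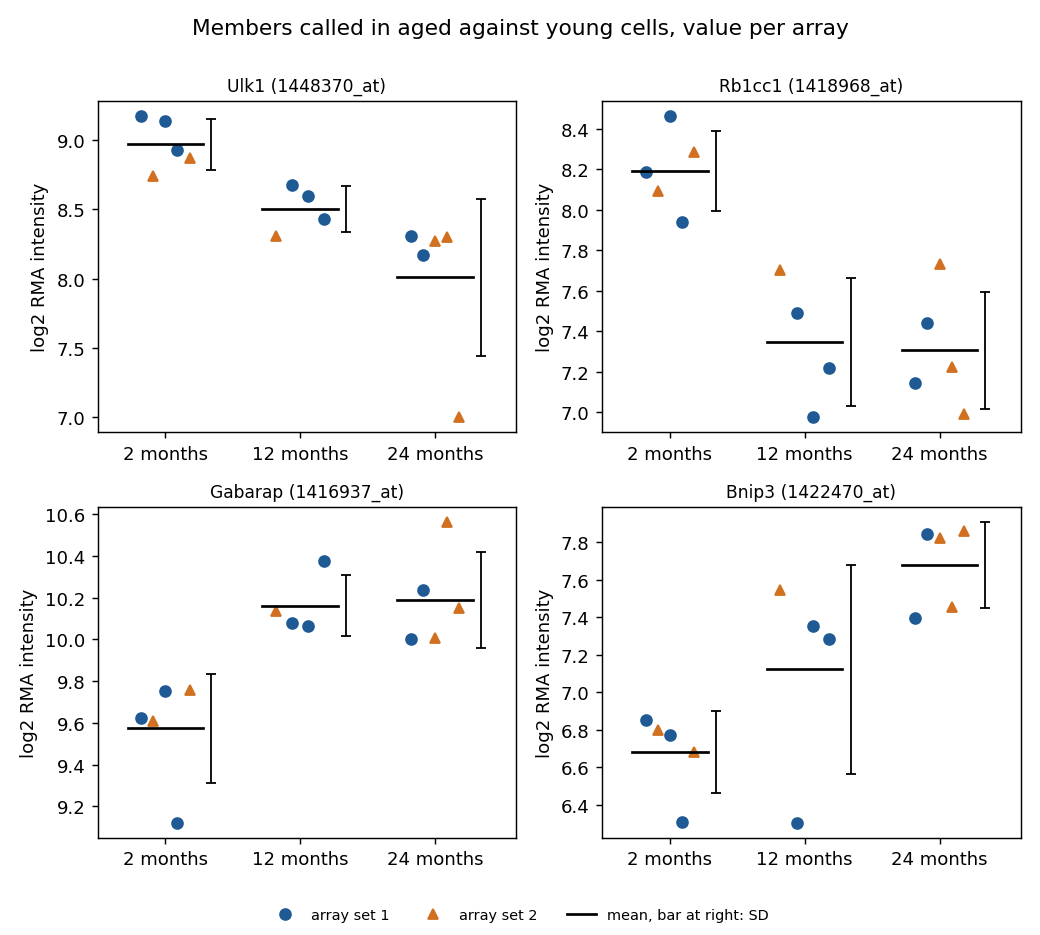
Log2 RMA intensity (vertical axis) of the 4 called members on each array at 2, 12 and 24 months (horizontal axis), with circles for array set 1, triangles for set 2, a line at the group mean and a bar of 1 SD at its right. Every aged value of Ulk1 and Rb1cc1 lies below every young value, and every aged value of Gabarap and Bnip3 above every young value; aged array 5 lies alone at 7.00 for Ulk1.

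Windows around the transcription start of 3 of the called genes, from 250 bases before to 50 bases after it, are shown because these genes moved with age and Bnip3 is a known target of the hypoxia-inducible factors; Rb1cc1 is not in the table used. They are RefSeq sequences of build GRCm38.p6, written 5′ to 3′ on the strand of the gene, Bnip3 at chr7:138909457-138909756 (minus strand), Gabarap at chr11:69991120-69991419 (plus strand) and Ulk1 at chr5:110810032-110810331 (minus strand). Capitals mark CACGTG, the E-box core also found in the element that Tfeb binds, and ACGTG, the core of the hypoxia response element, searched on both strands; ACGTG lies inside CACGTG, so every E-box counts for both. TGTTTAC, a forkhead motif of the FoxO factors, was searched too.
Bnip3: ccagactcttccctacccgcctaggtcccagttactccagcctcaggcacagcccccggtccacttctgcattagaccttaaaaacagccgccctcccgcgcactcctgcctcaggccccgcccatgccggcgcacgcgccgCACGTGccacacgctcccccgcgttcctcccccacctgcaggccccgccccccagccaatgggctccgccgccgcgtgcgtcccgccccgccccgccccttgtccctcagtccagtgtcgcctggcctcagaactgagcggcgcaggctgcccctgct
Gabarap: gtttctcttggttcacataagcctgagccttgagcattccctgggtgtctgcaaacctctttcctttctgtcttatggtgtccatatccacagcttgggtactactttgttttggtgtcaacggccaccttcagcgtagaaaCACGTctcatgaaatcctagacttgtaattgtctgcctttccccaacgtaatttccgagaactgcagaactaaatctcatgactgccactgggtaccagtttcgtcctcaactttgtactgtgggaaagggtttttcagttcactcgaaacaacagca
Ulk1: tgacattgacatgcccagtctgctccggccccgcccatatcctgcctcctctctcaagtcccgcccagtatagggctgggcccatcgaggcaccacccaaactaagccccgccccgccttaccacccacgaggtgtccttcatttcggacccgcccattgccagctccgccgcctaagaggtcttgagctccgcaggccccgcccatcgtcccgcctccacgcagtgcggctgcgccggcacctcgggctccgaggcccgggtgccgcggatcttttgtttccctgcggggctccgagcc
Bnip3 held CACGTG from position -108 relative to the start. Gabarap held the reverse complement of ACGTG, also from -108, and the Ulk1 window held none of the 3 motifs. Of the members, 26 had at least 1 window, 29 windows in all. CACGTG stood in 5 of them (17.2%, those of Atg3, Atg5, Atg7, Bnip3 and Lamp1) against 7.15% of all 32851 windows, ACGTG in 9 (31.0%) against 19.6%, and TGTTTAC in 0 against 3.65%. The windows of Bnip3 and Ulk1 held 27 and 26 CG pairs and that of Gabarap 7, where the median over all windows was 7. A match describes the letters in the window and was not tested against the expression values.

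Within the initiation kinase complex, 2 of the 4 listed genes fell in aged cells and 0 rose. By their brightest probe sets 134 of all 13579 genes fell and 375 rose. The median log2 change of the 4 was -0.76, against -0.05 over all genes. Atg101, a further subunit counted below with the other core genes, was not called. It read 7.13, 6.48, 7.18, 6.82 and 6.48 on the young arrays, 6.90, 6.32, 6.60 and 6.61 on the middle-aged and 6.99, 6.29, 7.65, 8.10 and 7.11 on the aged arrays. Ulk1 (Entrez 22241) encodes the kinase that receives the signals of mTORC1 and AMPK. Its brighter probe set read 9.17, 8.74, 9.14, 8.93 and 8.87 on the young arrays, 8.30, 8.68, 8.60 and 8.43 on the middle-aged and 8.31, 8.17, 8.27, 8.30 and 7.00 on the aged arrays. Every aged array was below every young one, the middle-aged arrays lay between the young and the 4 higher aged arrays or level with the latter, and aged array 5 stood far below the rest. The mean went from 8.97 ± 0.18 (SD, n = 5) through 8.50 ± 0.17 (n = 4) to 8.01 ± 0.57 (n = 5), 1.95-fold lower in aged than in young cells (log2 -0.96 ± 0.22 (SE), adjusted p = 0.0267). The call ended without young array 1, 3 or 4 (adjusted p = 0.0582 to 0.0769), with the RNA integrity covariate (-0.91 ± 0.29, adjusted p = 0.109) and when only young and aged arrays were fitted (adjusted p = 0.0629), and within set 2 alone (-0.95, adjusted p = 0.523). Within set 1 alone the change was -0.84 and passed (adjusted p = 0.0349). A dimmer probe set of Ulk1 gave -0.10 ± 0.17 and was not called (adjusted p = 0.848).

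Rb1cc1 (Entrez 12421) encodes the large scaffold that holds the kinase complex together, and it was the 1 member called at both older ages. The called probe set read 8.19, 8.09, 8.46, 7.94 and 8.28 on the young arrays, 7.70, 7.49, 6.98 and 7.22 on the middle-aged and 7.14, 7.44, 7.73, 7.23 and 6.99 on the aged arrays. All 9 older arrays lay below all 5 young arrays, and the middle-aged and aged ranges overlapped. Its mean was 8.19 ± 0.20, 7.35 ± 0.32 and 7.31 ± 0.29, so that aged cells were 1.85-fold lower than young cells (log2 -0.89 ± 0.17, adjusted p = 0.0108) and middle-aged cells 1.80-fold lower (-0.85 ± 0.19, adjusted p = 0.0299). Aged against young, the call held without each of the 14 arrays in turn (adjusted p = 0.00708 to 0.0364) and with the covariate (-1.05 ± 0.21, adjusted p = 0.0214). Within set 1 alone the change was -0.90 (adjusted p = 0.0613) and within set 2 alone -0.87 (adjusted p = 0.345). Middle-aged against young, it ended without young array 1, 3 or 5 or middle-aged array 3 or 4 (adjusted p = 0.0667 to 0.122), and within set 2, where a single middle-aged array gave -0.49. A second kept probe set of Rb1cc1 gave -0.55 ± 0.32 in aged against young cells and was not called (adjusted p = 0.462), with 3 of the 5 aged values inside the young range of 6.40 to 7.96.

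Atg13, the adaptor that links Ulk1 to the scaffold, was lower at both older ages without a call. Its brightest probe set read 7.37, 7.28, 7.33, 7.80 and 7.03 on the young arrays, 6.54, 7.11, 6.12 and 6.39 on the middle-aged and 6.78, 6.96, 7.17, 6.50 and 6.26 on the aged arrays. Young values were the highest on average, with middle-aged array 2 and aged array 3 inside the young range. The log2 change was -0.63 ± 0.21 in aged (adjusted p = 0.147) and -0.82 ± 0.23 in middle-aged cells (adjusted p = 0.0792), and the latter passed with array weights (adjusted p = 0.0229), with a term for the array set (0.0440) and without middle-aged array 2 (0.0343). Ulk2, the related kinase, showed -0.00 ± 0.21 in aged against young cells over means of 6.02 and 6.01.

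**Figure D2:**
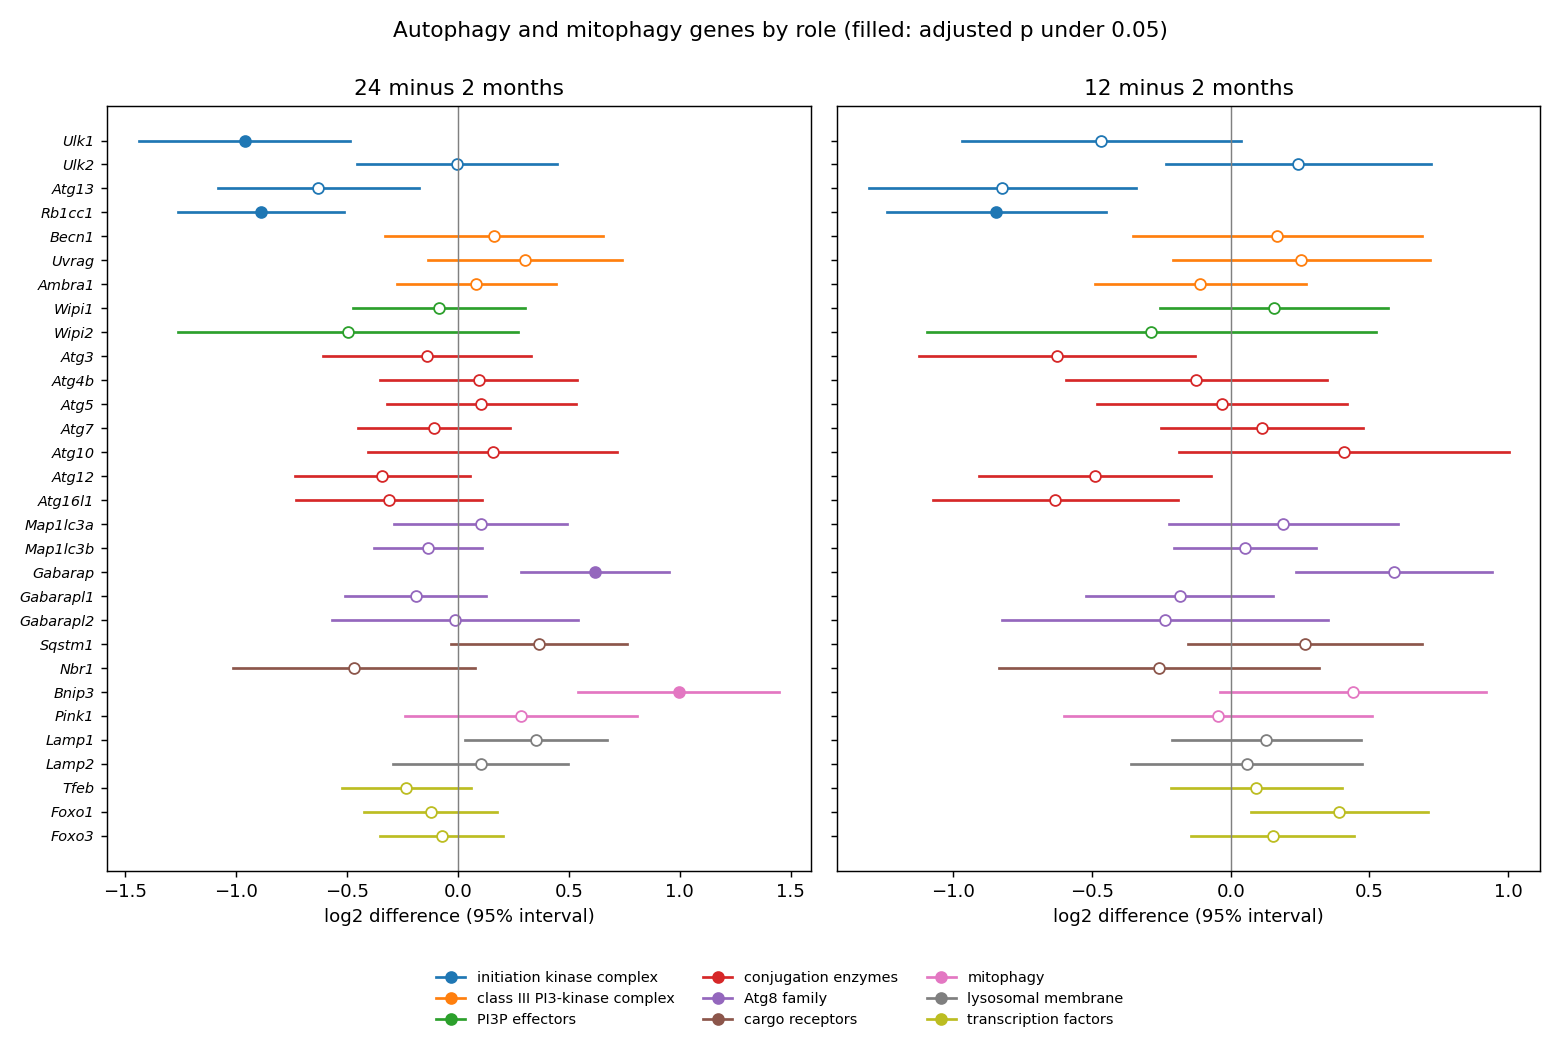
Log2 difference with its unadjusted 95% interval (horizontal axis) for the brightest kept probe set of each of 30 genes (vertical axis), coloured by role, for 24 minus 2 months on the left and 12 minus 2 months on the right, with filled points for an adjusted p under 0.05. Both panels use the same young arrays; Ulk1, Rb1cc1, Gabarap and Bnip3 are filled on the left and Rb1cc1 on the right.

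In the lipid kinase complex and its readers, 0 of 5 genes were called, beside 375 higher and 134 lower of all 13579 genes in aged against young cells. Becn1 (Beclin 1) is the regulatory subunit around which the complex forms. It read 8.89, 9.48, 8.82, 7.97 and 9.08 on the young arrays, 9.36, 8.82, 8.89 and 8.99 on the middle-aged and 8.95, 8.82, 9.12, 9.38 and 8.79 on the aged arrays. Young array 4 was the lowest and young array 2 the highest of all 14, so the young arrays spanned every older value. The change was 0.16 ± 0.23 in aged against young cells (95% interval -0.33 to 0.65). Uvrag and Ambra1, a partner and a regulator of Becn1, had changes of 0.30 ± 0.20 and 0.08 ± 0.17, and Wipi1 and Wipi2, which bind the lipid product, -0.08 ± 0.18 and -0.49 ± 0.36.

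The enzymes that conjugate the ubiquitin-like proteins, 7 genes, gave no call at either older age and a median change of -0.11 in aged against young cells. Over all 13579 genes, 375 rose and 134 fell in aged cells (median -0.05), and 199 rose and 116 fell in middle-aged cells. Atg3 is the E2-like enzyme that passes LC3 to the membrane lipid. It read 8.75, 9.47, 9.04, 9.10 and 9.05 on the young arrays, 8.90, 8.14, 8.47 and 8.30 on the middle-aged and 8.79, 8.42, 9.14, 9.64 and 8.72 on the aged arrays. Middle-aged arrays 2, 3 and 4 were below every young array, while aged values spread over the whole young range and beyond it. The change was -0.14 ± 0.22 in aged and -0.63 ± 0.23 in middle-aged cells (adjusted p = 0.831 and 0.214), and the middle-aged change passed with the RNA integrity covariate (-0.87 ± 0.20, adjusted p = 0.0325). Atg16l1 belongs to the complex that directs the lipid conjugation to the membrane. It read 8.16, 7.79, 8.19, 8.29 and 7.73 on the young arrays, 7.38, 7.57, 7.03 and 7.63 on the middle-aged and 8.22, 7.64, 7.97, 7.58 and 7.21 on the aged arrays. Every middle-aged array was below every young array and aged array 1 above 4 of the 5 young arrays, with changes of -0.63 ± 0.21 in middle-aged (adjusted p = 0.150) and -0.31 ± 0.20 in aged cells (adjusted p = 0.507). Of the other enzymes, the E1-like Atg7 and the E2-like Atg10 had aged against young changes of -0.11 and 0.16, and Atg5 and Atg12, which are joined to each other, had 0.11 and -0.34; for Atg12 the call was missed at both older ages (adjusted p = 0.419 and 0.248).

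Middle-aged against young cells gave 1 called member probe set of 69 (1.45%), Rb1cc1, against a background of 1.86% (1.18% higher and 0.682% lower). The 12-month arrays lay wholly below the young arrays for 5 member probe sets (7.25%; those of Ulk1, Rb1cc1, Atg16l1, Atg4b and Wipi2), against 4.46% of all probe sets, and wholly above them for 1, Gabarap (1.45%, against 3.24%). Atg4b, the protease that trims LC3 proteins before and after conjugation, and Wipi2 did so with a probe set that is not their brightest, and both are named after their values were seen. That of Atg4b read 8.06, 8.20, 8.16, 8.08 and 7.99 on the young arrays, 7.56, 7.61, 7.33 and 7.61 on the middle-aged and 7.66, 7.41, 8.13, 8.40 and 8.19 on the aged arrays. Aged arrays 3, 4 and 5, all of set 2, were near or above the young arrays and aged arrays 1 and 2, of set 1, near the middle-aged. Its change was -0.57 ± 0.18 at 12 months (adjusted p = 0.139) and -0.14 ± 0.17 at 24 months (adjusted p = 0.764), and the brightest probe set of Atg4b gave -0.12 and 0.10. The Wipi2 probe set read 6.43, 6.91, 6.96, 6.42 and 6.40 on the young arrays, 5.91, 6.31, 5.62 and 5.90 on the middle-aged and 6.07, 6.33, 6.91, 6.39 and 6.63 on the aged arrays, with changes of -0.69 ± 0.20 (adjusted p = 0.100) and -0.16 ± 0.19 (adjusted p = 0.765). With array weights 5 member probe sets were called at 12 months and with the RNA integrity covariate 4. Without young array 1, 3 or 5 or middle-aged array 3 or 4 the count was 0, and without middle-aged array 1 or 2 it was 2. Over all probe sets, 1461 and 941 were called with array weights and with the covariate. The fits with 0 members called 149 to 270 probe sets, and those with 2 called 470 and 375.

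**Figure D3:**
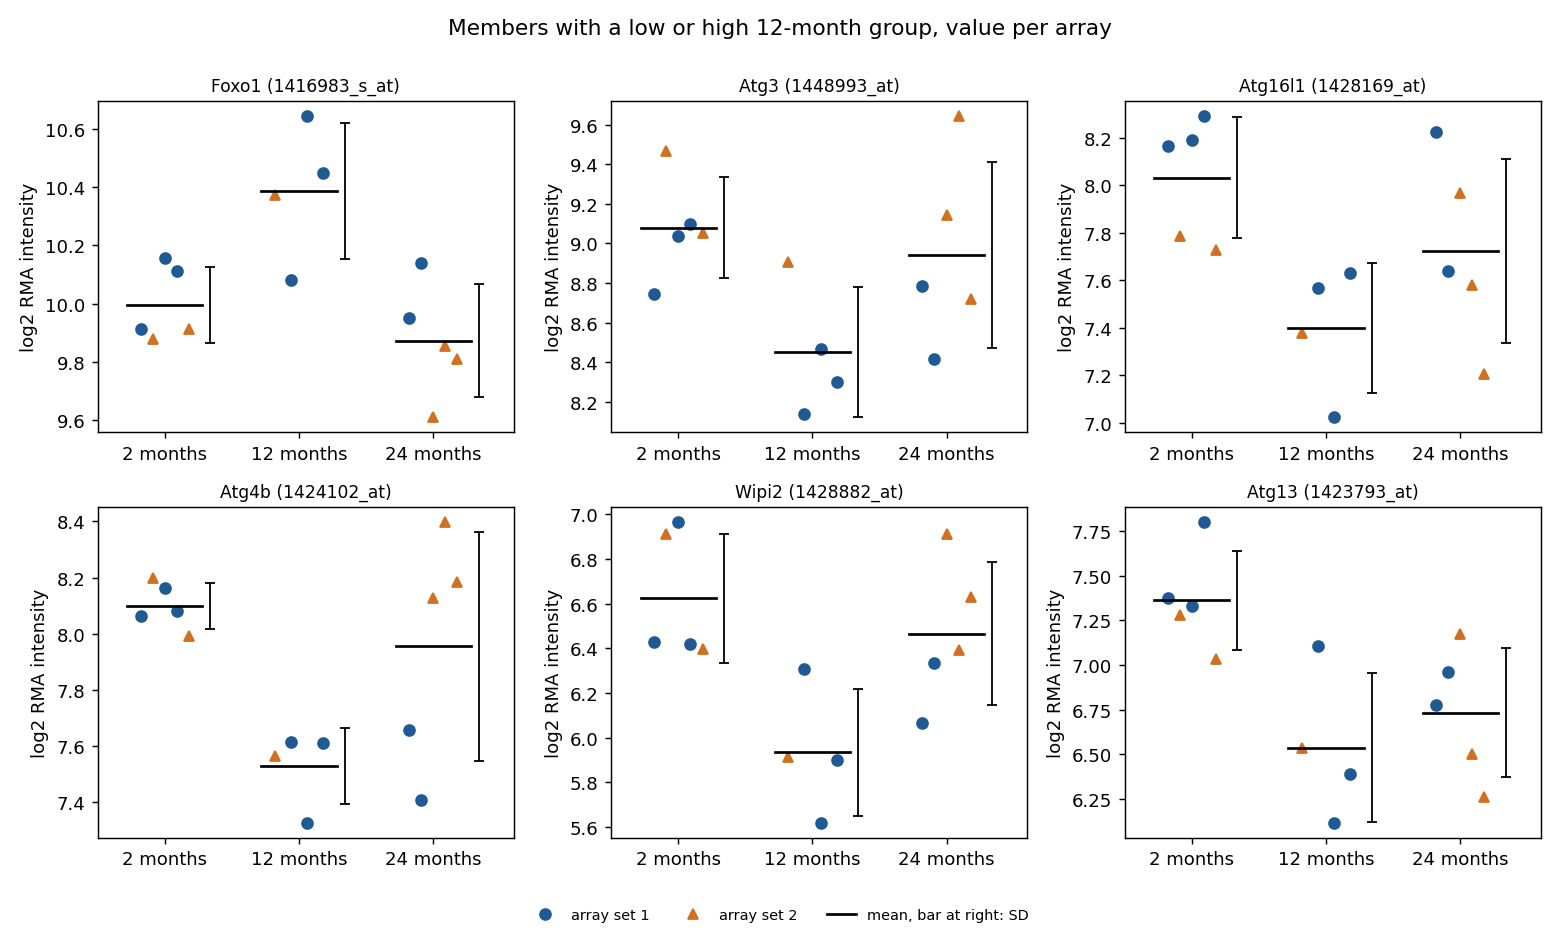
Log2 RMA intensity (vertical axis) on each array at 2, 12 and 24 months (horizontal axis) for 6 member probe sets, of which those of Atg4b and Wipi2 were chosen after their values were seen, with circles for array set 1, triangles for set 2, a line at the mean and a bar of 1 SD. The 12-month arrays of Atg4b, Atg16l1 and Wipi2 lie below all young arrays, and of the 6 shown none was called in any pairwise comparison.

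The 5 LC3 and GABARAP genes encode the ubiquitin-like tags of the autophagosome membrane. In aged against young cells 1 rose and 0 fell, beside 375 and 134 of all 13579 genes. Gabarap (Entrez 56486) is the founding member of its branch of the family. It read 9.62, 9.61, 9.75, 9.12 and 9.76 on the young arrays, 10.14, 10.08, 10.06 and 10.38 on the middle-aged and 10.00, 10.23, 10.01, 10.56 and 10.15 on the aged arrays. All 9 older arrays were above all 5 young arrays, and young array 4 was well below the other young ones. The means were 9.57 ± 0.26, 10.16 ± 0.15 and 10.19 ± 0.23, a rise of 1.53-fold in aged cells (log2 0.62 ± 0.16, adjusted p = 0.0435) and a difference of 0.59 ± 0.17 in middle-aged cells that did not pass (adjusted p = 0.0863). This call was the least firm of the 4: it held without aged array 1 or 3 and ended without each of the other 12 arrays (adjusted p = 0.0517 to 0.102). It ended also with the RNA integrity covariate, where the change was 0.37 ± 0.17 (adjusted p = 0.285), with array weights (adjusted p = 0.0543) and with young and aged arrays fitted alone (adjusted p = 0.0869). Within set 1 alone it was 0.62 (adjusted p = 0.177) and within set 2 alone 0.56 (adjusted p = 0.495).

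The other 4 genes of the family were not called. Map1lc3a and Map1lc3b encode LC3 proteins, the standard markers of autophagosomes. Map1lc3a read 12.02, 11.82, 11.83, 12.06 and 11.72 on the young arrays, 11.66, 12.05, 12.35 and 12.28 on the middle-aged and 12.46, 12.25, 11.54, 11.85 and 11.88 on the aged arrays. Map1lc3b read 11.75, 11.72, 11.81, 11.52 and 11.70 on the young arrays, 11.76, 11.81, 11.74 and 11.70 on the middle-aged and 11.57, 11.77, 11.51, 11.46 and 11.52 on the aged arrays. The young range of Map1lc3a lay inside the aged range, while 3 aged values of Map1lc3b, at 11.51, 11.46 and 11.52, were at or just below the lowest young value. Their changes were 0.10 ± 0.18 (95% interval -0.29 to 0.49) and -0.13 ± 0.11 (-0.38 to 0.11). The second probe set of Map1lc3a gave 0.55 ± 0.18 and did not pass (adjusted p = 0.142), whereas the 4 probe sets of Map1lc3b ran from -0.22 to -0.13. Gabarapl1 is a stress-inducible relative of Gabarap. It read 10.53, 10.35, 10.60, 10.54 and 10.44 on the young arrays, 10.16, 10.52, 10.51 and 10.05 on the middle-aged and 10.31, 10.50, 10.27, 10.53 and 9.90 on the aged arrays, with a change of -0.19 ± 0.15, and Gabarapl2 had -0.01 ± 0.26.

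Receptors that carry cargo to the LC3 proteins showed no call beyond that of Bnip3. Sqstm1 (p62) binds ubiquitinated cargo and is itself consumed by autophagy. It read 11.18, 10.97, 11.62, 11.32 and 11.06 on the young arrays, 11.47, 11.43, 11.54 and 11.56 on the middle-aged and 11.57, 11.39, 11.42, 12.31 and 11.29 on the aged arrays. Aged array 4 was the highest of all and the other aged arrays lay among the middle-aged and the upper young values. The change was 0.37 ± 0.19 (adjusted p = 0.379), and 0.19 without aged array 4. Nbr1, a related receptor, had -0.47 ± 0.26 (adjusted p = 0.420).

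Bnip3 (Entrez 12176), which sits in the outer mitochondrial membrane and tethers mitochondria to LC3 proteins, had the largest rise among the members' brightest probe sets. It read 6.85, 6.80, 6.77, 6.31 and 6.68 on the young arrays, 7.55, 6.30, 7.36 and 7.29 on the middle-aged and 7.40, 7.85, 7.82, 7.46 and 7.86 on the aged arrays. All aged arrays were above all young arrays, while middle-aged array 2 was the lowest of the 14 and the other middle-aged arrays lay between the young range and the upper aged values. The means were 6.68 ± 0.22, 7.12 ± 0.56 and 7.68 ± 0.23, a rise of 1.99-fold in aged cells (log2 0.99 ± 0.21, adjusted p = 0.0164) and a difference of 0.44 ± 0.23 in middle-aged cells (adjusted p = 0.391). The call ended without young array 4 (adjusted p = 0.0508) and with the RNA integrity covariate (0.78 ± 0.26, adjusted p = 0.128), and within the array sets alone, where the change was 0.98 in set 1 (adjusted p = 0.139) and 0.97 in set 2 (adjusted p = 0.215). Pink1 is the kinase that flags damaged mitochondria. It read 9.15, 10.12, 9.15, 8.66 and 9.74 on the young arrays, 9.63, 9.00, 9.30 and 9.32 on the middle-aged and 9.40, 9.62, 9.95, 9.26 and 10.00 on the aged arrays. Young arrays 2 and 5, of set 2, were higher than the other young ones and young array 4 the lowest, and the age groups overlapped, with a change of 0.28 ± 0.25 (95% interval -0.24 to 0.81).

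The lysosomal membrane glycoproteins Lamp1 and Lamp2, which line the compartment where autophagosomes end, were not called. Lamp1 read 10.77, 10.48, 10.63, 10.74 and 10.63 on the young arrays, 10.79, 10.50, 11.21 and 10.61 on the middle-aged and 10.91, 11.04, 11.16, 10.73 and 11.18 on the aged arrays. Lamp2 read 11.91, 12.28, 11.82, 11.23 and 12.19 on the young arrays, 12.25, 11.95, 11.70 and 11.87 on the middle-aged and 11.96, 11.80, 12.10, 11.94 and 12.15 on the aged arrays. Aged Lamp1 exceeded the highest young value of 10.77 on 4 of 5 arrays, whereas Lamp2 overlapped fully, with young array 4 the lowest. The changes were 0.35 ± 0.15 (adjusted p = 0.269) and 0.10 ± 0.18 (adjusted p = 0.854). The 4 probe sets of Lamp2, a gene with alternative last exons, ran from -0.20 to 0.36.

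Transcription factors that drive autophagy genes did not pass at any age. Tfeb is the master regulator of lysosomal genes. It read 6.56, 6.21, 6.55, 6.27 and 6.29 on the young arrays, 6.26, 6.39, 6.55 and 6.67 on the middle-aged and 6.41, 6.18, 5.93, 6.17 and 6.03 on the aged arrays. Aged array 3 was the lowest and middle-aged array 4 the highest, and the change was -0.23 ± 0.14 in aged against young cells (adjusted p = 0.472). Foxo1 and Foxo3 activate autophagy and atrophy genes in muscle. Foxo1 read 9.91, 9.88, 10.16, 10.11 and 9.91 on the young arrays, 10.37, 10.08, 10.64 and 10.45 on the middle-aged and 9.95, 10.14, 9.61, 9.85 and 9.81 on the aged arrays. Foxo3 read 8.92, 9.21, 8.59, 8.98 and 9.00 on the young arrays, 9.11, 9.17, 9.12 and 8.96 on the middle-aged and 8.94, 8.97, 8.85, 8.72 and 8.85 on the aged arrays. Foxo1 was higher on middle-aged arrays 1, 3 and 4 than on every other array, with 0.39 ± 0.15 in middle-aged against young cells (adjusted p = 0.224) and -0.12 ± 0.14 in aged against young cells (adjusted p = 0.754), and Foxo3 had 0.15 ± 0.14 and -0.07 ± 0.13.

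Among the 26 genes without a called probe set, aged against young changes of the brightest probe set ran from -0.63 to 0.37, and for 23 of them the unadjusted 95% interval lay within a log2 change of 1 (2-fold) either way. The remaining 3 could hold changes above that size. Of 22 genes with more than 1 kept probe set, 11 had the same sign in all of them.

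Aged against middle-aged cells gave 0 called member probe sets, and 0 of all 23887 were called by limma (background 0.00%). The aged and middle-aged arrays overlapped for all 69 member probe sets, where 1.20% of all probe sets lay wholly higher and 1.14% wholly lower in aged cells. At an unadjusted p under 0.05 there were 8 of 69 members (11.6%) against 8.74% of all probe sets, and the smallest adjusted p among members was 0.424, that of Foxo1 (-0.51). The late step minus the early step gave 0 called members and 0 probe sets in all (0.00%), with 11 members (15.9%) against 10.9% of all at an unadjusted p under 0.05. Over the 3 ages together the F test called 2 member probe sets (2.90%), those of Bnip3 (adjusted p = 0.0438) and Rb1cc1 (adjusted p = 0.0165), against 2.81% of all.

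Other genes of the pathway were described from lists of core machinery, further receptors, lysosomal genes with the factors Mitf and Tfe3, and signalling. Of 28 other core autophagy genes, 2 fell and 0 rose in aged against young cells (median log2 change -0.09), beside 134 and 375 of all 13579 genes (median -0.05). Wdr45, a relative of the Wipi proteins, fell 1.65-fold. It read 8.45, 8.15, 8.72, 8.58 and 8.47 on the young arrays, 7.82, 7.39, 7.88 and 7.88 on the middle-aged and 7.48, 7.98, 7.93, 7.91 and 7.44 on the aged arrays, with every older array below every young one. The change was -0.73 ± 0.16 in aged (adjusted p = 0.0216) and -0.73 ± 0.17 in middle-aged cells (adjusted p = 0.0430). The aged call was lost on leaving out young array 1, 3 or 4, or else aged array 1 or 5, with an adjusted p from 0.0506 to 0.0674, and the middle-aged call without any 1 of young arrays 1, 3, 4 and 5 and of the 4 middle-aged arrays (0.0619 to 0.120). The aged call ended also with the RNA integrity covariate (adjusted p = 0.0528), and the middle-aged call with quantile normalization, with the trend and robust variance model and within set 2. Atg16l2, a relative of Atg16l1, fell 1.74-fold (-0.80 ± 0.20, adjusted p = 0.0456), and its call ended without young array 1, 3 or 4, middle-aged array 3 or any 1 aged array (adjusted p = 0.0527 to 0.124), with no filter, median centring, the trend and robust variance model or array weights, and with the RNA integrity covariate (adjusted p = 0.154). Neither aged call passed within an array set alone, and the change within set 2 was -0.55 for Wdr45 and -0.45 for Atg16l2.

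Among 15 tested genes of other cargo and mitophagy receptors 0 were called (median -0.05). In aged against young cells 375 of all 13579 genes rose and 134 fell (median -0.05). The 3 with the smallest F test p were the mitochondrial phosphatase Pgam5 (0.45 in aged against young cells), Bcl2l13 (-0.73), a mitochondrial receptor, and Tollip (-0.19), an adaptor for ubiquitinated cargo.

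Of 22 tested genes on a list of lysosomal genes and the transcription factors Mitf and Tfe3, 2 rose in aged cells and 0 fell (median 0.07). These were Gla and the factor Mitf, each by its brightest probe set, beside 375 higher and 134 lower of all 13579 genes. Gla, the lysosomal alpha-galactosidase, rose 2.57-fold. It read 5.63, 4.90, 5.28, 4.57 and 5.84 on the young arrays, 6.12, 6.12, 5.43 and 6.80 on the middle-aged and 6.21, 6.54, 6.92, 6.85 and 6.51 on the aged arrays. All aged arrays were above all young arrays, with a change of 1.36 ± 0.27 (adjusted p = 0.0107) that passed without each array in turn and was 1.04 ± 0.32 with the RNA integrity covariate (adjusted p = 0.0999). Mitf, a factor of the same family as Tfeb, rose 2.97-fold (1.57 ± 0.34, adjusted p = 0.0175). It read 5.89, 6.82, 6.16, 6.15 and 5.56 on the young arrays, 7.62, 6.23, 8.11 and 7.11 on the middle-aged and 6.85, 8.25, 8.02, 7.47 and 7.85 on the aged arrays. Aged array 1, at 6.85, was close to young array 2, at 6.82, and the call ended without young array 1 (adjusted p = 0.0517) and with the covariate (1.28 ± 0.42, adjusted p = 0.126). Within an array set alone neither Gla nor Mitf passed (adjusted p = 0.132 and 0.147 in set 1, 0.235 and 0.262 in set 2). A subunit of the proton pump, Atp6v1c1, fell at 12 months in its dimmer probe set (-1.09 ± 0.21, adjusted p = 0.0172) and not by its brighter one (-0.74, adjusted p = 0.0859), and the call ended without middle-aged array 3 or 4 (adjusted p = 0.0577 and 0.0723) and within set 2 (-0.67).

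Of 23 tested genes of mTORC1, AMPK and FoxO signalling, 1 fell in aged and 1 in middle-aged cells, and 0 rose (median -0.17 and -0.24). Of all 13579 genes, 134 fell in aged and 116 in middle-aged cells (median -0.05 and -0.04). Prkab2, a beta subunit of AMPK, fell 1.81-fold in aged cells (-0.86 ± 0.16, adjusted p = 0.00846). At 12 months Prkab2 had -0.69 ± 0.17 and just missed a call (adjusted p = 0.0531), and it passed there in 10 of the alternatives. It read 10.84, 10.76, 11.00, 11.20 and 10.71 on the young arrays, 10.14, 10.40, 10.21 and 10.08 on the middle-aged and 10.29, 10.37, 9.57, 10.03 and 9.96 on the aged arrays. No older array reached the young range, and the call held without each array in turn but ended with the RNA integrity covariate (-0.60 ± 0.18, adjusted p = 0.0881), within set 1 (adjusted p = 0.0863) and within set 2 (adjusted p = 0.258). Rragd, a GTPase that recruits mTORC1 to the lysosome, fell at 12 months (-1.28 ± 0.28, adjusted p = 0.0314) and had -0.89 ± 0.27 at 24 months (adjusted p = 0.0922). The 24-month change of Rragd passed with a term for the array set (adjusted p = 0.0193), within set 1 (0.0278) and without aged array 3 (0.0353). It read 7.67, 7.88, 7.46, 7.94 and 7.70 on the young arrays, 6.95, 6.50, 6.51 and 5.84 on the middle-aged and 6.04, 6.64, 7.56, 6.57 and 7.37 on the aged arrays. Its 12-month call ended without any 1 young array or middle-aged array 2, 3 or 4 (adjusted p = 0.0563 to 0.112) and within set 2 (-0.84).

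Of 4 listed ubiquitin ligases controlled by FoxO factors, 3 were tested and 1, Fbxo32 (atrogin-1), fell in its dimmer probe set at both older ages. That was 1 of 9 kept probe sets, where over all probe sets 0.888% fell in aged and 0.682% in middle-aged cells. The dimmer probe set of Fbxo32 read 6.10, 5.98, 6.38, 6.48 and 5.87 on the young arrays, 5.50, 5.35, 5.33 and 5.27 on the middle-aged and 5.16, 5.30, 5.83, 5.47 and 5.55 on the aged arrays. Every older array was below every young array, with -0.70 ± 0.16 in aged (adjusted p = 0.0216) and -0.80 ± 0.17 in middle-aged cells (adjusted p = 0.0231). The brighter probe set had -1.12 in aged cells and did not pass (adjusted p = 0.212), with young values from 7.58 to 9.55 and aged values from 6.33 to 8.11. Within set 1 the change of the dimmer probe set was -1.09 in aged cells and within set 2 it was -0.31. The aged call was lost on leaving out young array 3 or 4, or else aged array 1 or 2, with an adjusted p from 0.0540 to 0.0666, when only the compared groups were fitted (adjusted p = 0.0561), with the RNA integrity covariate (adjusted p = 0.0703) and within set 2, and the middle-aged call within set 2 and without young array 1, 3 or 4 or middle-aged array 2, 3 or 4 (0.0502 to 0.0827).

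**Figure D4:**
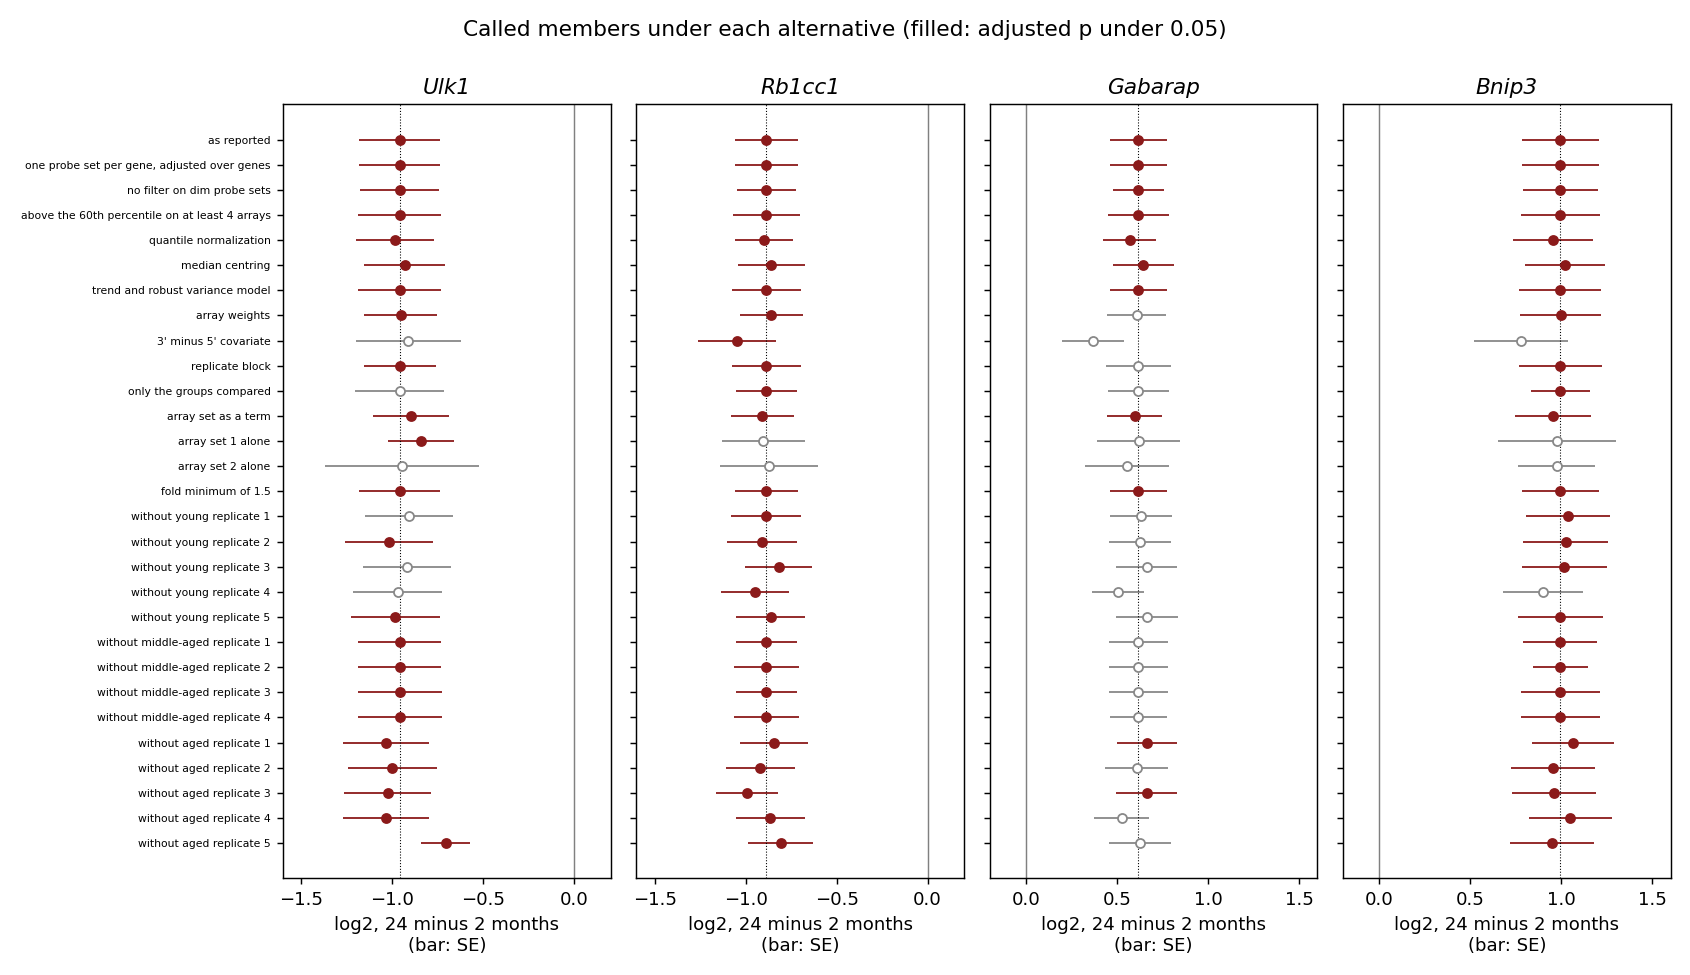
Log2 change of the 4 called members in aged against young cells with its SE (horizontal axis) as reported and under each alternative (vertical axis), with filled red points for an adjusted p under 0.05 and a dotted line at the reported value. Every point keeps the reported sign; Rb1cc1 loses its call within the array sets alone, and Gabarap under most of the arrays left out.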

How the data were processed

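Each of 14 Affymetrix mouse arrays measured 1 sample. RMA was applied by the authors, per the submitters' processing notes, and what they deposited is the linear intensity of each probe set (array medians 19.0 to 21.2). Versions and the genome build were not given in the sources used here. Their log2 was taken here with no further normalization. Symbols came from the platform annotation dated 2016, and all 31 members with a probe set of their own matched RefSeq by Entrez identifier. Control probe sets (64) and probe sets with several symbols (932) or none (9160) were left out. Age group was the only factor in a linear model of all 14 arrays (limma 3.58.1, R 4.3.3, moderated two-sided tests), fitted for every probe set that on 4 or more arrays exceeded the array's own 40th percentile (between 3.79 and 3.96 in log2). P-values were adjusted by Benjamini-Hochberg over all 23887 probe sets and called at 0.05. The unit tested was the probe set, and a gene is represented by its brightest kept one. Errors of changes are moderated standard errors, and those of means are SD.

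All members are accounted for. Values on every array are given for members called in any pairwise comparison or F test, for the 8 with the smallest F test p and for 13 tested genes of a fixed set; probe sets of Atg4b and Wipi2 were added after their values were seen; of pathway lists, called genes or the 3 with the smallest p. Members, lists and rule were chosen with earlier results of these data known. Alternatives changed the unit tested, filter, normalization, variance model, array weights, RNA quality covariate, replicate block, arrays fitted and fold minimum, and left out each array in turn. The array sets are the negative and positive sides of the leading principal component after each age group was centred, which held 31.3% of the variance. The model was tested on simulated data. The number of arrays limits the precision. Arrays correlated pairwise at 0.960 to 0.989 and 0 pairs were identical. Protein levels and autophagic flux were not measured by these arrays.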

Additional observations from a re-analysis of the deposited data

Results flagged for a closer look

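In 54 groups of 4 or 5 arrays, for the 18 members that the naming rule gives, 3 values stood apart from the rest of their group by Dixon's 95% criterion; chance alone flags about 1 group in 20. Ulk1 on aged array 5 was 7.00, where the other 4 aged arrays lay between 8.17 and 8.31. Without that array the aged against young change was -0.71 ± 0.14 (SE, adjusted p = 0.0118), against -0.96 with it. Gabarap on young array 4 was 9.12, where the other young arrays lay between 9.61 and 9.76. Without that array the change was 0.50 ± 0.14 (adjusted p = 0.102), so the call ended. Young array 4 also had the largest 3' minus 5' difference of the 14 arrays, 5.05, and the part of this in its Gabarap value was not tested. Sqstm1 on aged array 4 was 12.31, where the other aged arrays lay between 11.29 and 11.57, and without it the change was 0.19 ± 0.15 (adjusted p = 0.611).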

How the results depend on the processing

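The 4 calls in aged against young cells kept their sign under every alternative run, and 0 of the 140 refitted values of called changes reversed; 37 of them no longer passed. The count of 4 became 1 with the 3' minus 5' covariate, 2 with only the groups compared, 1 within array set 1 and 0 within array set 2, and ran from 1 to 4 with 1 array left out; the other settings gave 3 or 4. In middle-aged against young cells the count of 1 became 5 with array weights, 4 with the covariate, 2 with only the groups compared, 2 with a term for the array set, 2 within set 1 and 0 within set 2, and ran from 0 to 2 with 1 array left out. The F test count of 2 became 1 with no filter, 1 with the trend and robust variance model, 5 with array weights, 1 with the covariate, 4 with a term for the array set and 0 within set 2, and ran from 0 to 3 with 1 array left out. Over all probe sets, the 740 calls in aged against young cells became 609 with the covariate and 854 within set 1. With only the groups compared they were 632. The 671 called by the F test became 589 with no filter and 642 with the trend and robust variance model. With array weights they were 1224, with the covariate 620 and with the set term 1243. With 1 array left out they ran from 322 to 753. With replicate number as a block the member counts were 3 in aged against young cells, 0 in middle-aged against young cells and 0 by the F test. Over all probe sets the block gave 560, 167 and 326. The block ended the calls of Gabarap (adjusted p = 0.120) and, at 12 months, Rb1cc1 (0.0882). It also ended the 12-month calls of Wdr45, Rragd and the dimmer probe set of Atp6v1c1, and both calls of the dimmer probe set of Fbxo32. The aged call of Wdr45 held (0.0416). Deviations of arrays with the same number correlated between -0.47 and 0.31 (median -0.07, 13 pairs). The array sets cross the replicate numbers and enter these correlations, which therefore cannot decide whether the numbers pair the arrays. What the numbers stand for is not given in the labels. Aged against middle-aged cells and the late minus the early step gave 0 members in every fit. Of 1372 refitted values of uncalled changes of the 18 members named by rule, 5 passed and 70 changed sign. Other members passed too at 12 months: Atg4b and Wipi2 with array weights and with the covariate, and Atg4b with only the groups compared. Ambra1 passed within set 1 and without middle-aged array 1, by a rise of its dimmer kept probe set. That probe set read 4.33, 4.44, 4.39, 4.00 and 3.88 on the young arrays and 3.39, 5.25, 5.50 and 5.56 on the middle-aged. Atg12 passed at 24 months without aged array 4, by its dimmer kept probe set. With all arrays that probe set had -0.61 in aged against young cells and the brightest -0.34. Fits within a set hold 8 and 6 arrays, and set 2 has 1 middle-aged array, assumed to vary like the others. Over all probe sets tested, the 740 called in aged against young cells became 1352 with a term for the array set and 12 within set 2, and the 444 called in middle-aged against young cells became 1461 with array weights, 941 with the covariate, 772 with only the groups compared, 889 with a term for the array set, 1079 within set 1, 0 within set 2 and 167 with the block. With 1 array left out these counts ran from 471 (without young array 3) to 762 and from 149 (without middle-aged array 3) to 512; the latter was also at least 1.5 times lower without middle-aged array 4 (197) or young array 1 (213), 3 (217), 4 (266) or 5 (270), and the former without young array 1 (487).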
